A study of Homo sapiens with 2 samples.

Results

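Integrin subunits and laminin chains were followed in A673 cells, an established human Ewing sarcoma line driven by the EWS/FLI1 fusion. The members are the genes of the deposited table whose symbol starts with ITGA or ITGB, without the ITGB-binding proteins and ITGBL1, and the genes named LAMA, LAMB or LAMC followed by a digit. They are 38 of 23352 genes, 26 integrin subunits and 12 laminin chains. Cells in the first group carried the lentiviral RUNX3 hairpin sh813, and cells in the second carried a non-target hairpin (shNT). All cells received virus with 6 µg/mL polybrene and were selected in 0.4 µg/mL puromycin for 6 days, so every library is of a puromycin-selected population, named as a pool in its title. The hairpin stated in the shRNA field of each library is the opposite of the one in its title. Libraries are called here by their titles, as labelled 813 and labelled NT, and every direction below would turn round if the shRNA field were right. The targeted gene RUNX3 had 387 pairs in the library labelled 813 and 1391 pairs in the library labelled NT, a log2 fold of -1.92 (-2.09 to -1.76), which goes with the titles. CD99, the surface marker of Ewing sarcoma, had 4026 and 3808 CPM in the libraries labelled 813 and NT, while the other Ewing markers NKX2-2 (102 and 275 CPM), NR0B1 (123 and 266 CPM) and STEAP1 (15.6 and 27.8 CPM) were lower in the library labelled 813 and CCND1 (1835 and 1193 CPM) higher, and 2 of the 5 were called lower. The leukocyte markers PTPRC and CD3E and the epithelial markers EPCAM and CDH1 had at most 1 pair in either library. Of the other epithelial markers, KRT18 had 625 and 563 CPM, KRT8 49.0 and 71.7 CPM and KRT19 4 and 17 pairs in the libraries labelled 813 and NT.

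Integrins are cell surface receptors made of 1 alpha and 1 beta subunit that bind the extracellular matrix or other cells and couple to the actin cytoskeleton through talin and kindlin. Laminins are secreted trimers of an alpha, a beta and a gamma chain that build the scaffold of basement membranes. Several integrins, those with the alpha subunits ITGA3, ITGA6 and ITGA7, bind laminins directly.

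Each group has a single RNA-seq library, so no value has a replicate check and nothing was tested across samples. In such bulk RNA, fewer cells of a type and less RNA per cell cannot be told apart. The library labelled 813 held 23342660 read pairs over genes and the library labelled NT 24326135. CPM here is computed on pairs with the library size after TMM scaling (24461352 pairs for 813 and 23213627 for NT), and log2 folds are 813 over NT. Each log2 fold is followed in brackets by its exact 95% binomial interval, which covers counting error only. Measured genes are those that reached 1 CPM in either library. A call needed a fold of at least 2 whose whole interval lay past 1.5-fold.

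Most integrin and laminin genes that A673 cells expressed had a higher level in the library labelled 813. Of the 38 members, 21 were measured, and 8 of these were called higher in the library labelled 813, against 8.13% of the 12254 measured genes of the whole table. In the other direction 3 members were called lower, against 3.48% of all measured genes. The 8 higher genes were ITGA3, ITGA4, ITGA9, ITGB3, ITGB5, LAMA4, LAMB1 and LAMC1, and the 3 lower ones ITGAM, ITGB2 and LAMB3. The median log2 fold was 0.74 over the measured members and 0.011 over all measured genes, and 16 of the 21 members had a log2 fold above 0. ITGA1, ITGA4 and ITGB3 were measured through the library labelled 813 alone and ITGAM through the library labelled NT alone, so ITGA4, ITGB3 and ITGAM had to differ to be counted. Of the 17 members at 1 CPM or more in both libraries, 6 were called higher and 2 lower. The shares over all measured genes include 556 genes measured through the library labelled 813 alone and 294 through the library labelled NT alone. Those shares are therefore no matched background for this count, and a matched one is not given. Once the dependence of the fold on GC content and length was subtracted, 5 members were called higher and 1 lower, against 5.97% and 2.5% of all genes so treated, since ITGA4 (1.57), ITGA9 (0.98), LAMB1 (0.91), ITGB2 (-0.90) and LAMB3 (-0.83) no longer passed.

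**Figure D1:**
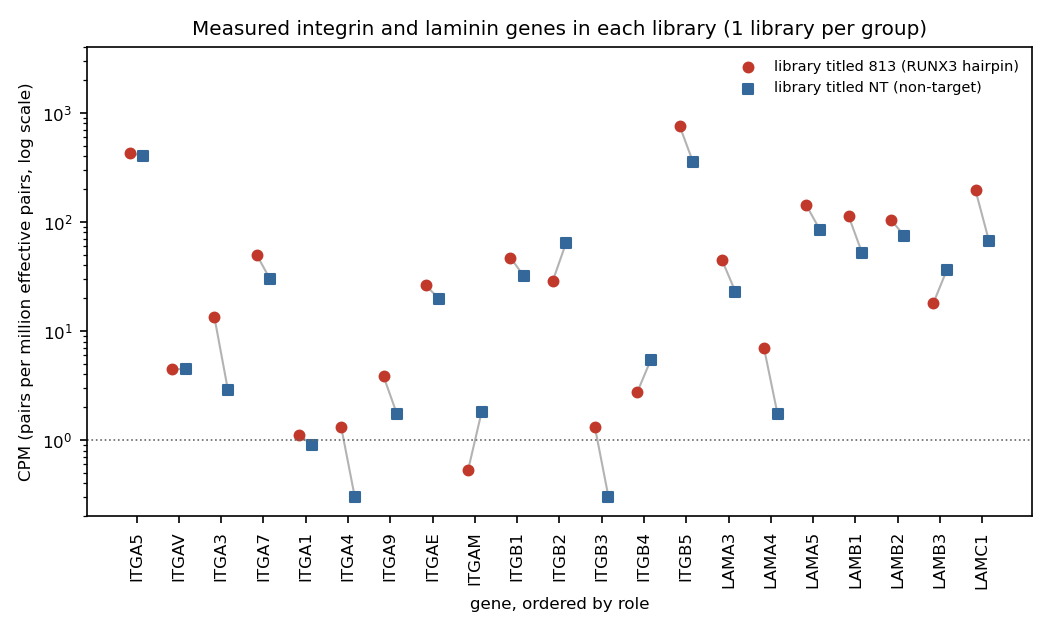
Level of each of the 21 measured members in CPM on a log axis, by gene in order of role, with circles for the library labelled 813 and squares for the library labelled NT (1 library each). The dotted line marks 1 CPM. ITGB5 and ITGA5 stand highest in both libraries, and squares lie above circles for ITGAM, ITGB2, ITGB4 and LAMB3, while the 2 ITGAV points coincide.

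Levels per length, in the RPKM the authors deposited, showed that each family was dominated by very few genes. ITGA5 made up 80.7% of the summed alpha subunit RPKM in the library labelled 813 and 86.4% in the library labelled NT. ITGB5 made up 91.4% of the beta subunit RPKM in the library labelled 813 and 78.1% in the library labelled NT. Among laminins, LAMA5 held 70.4% and 75.1% of the alpha chain RPKM in the libraries labelled 813 and NT, and LAMC1 held 99.2% and 98.1% of the gamma chain RPKM. The beta chains were the mixed family. LAMB1, LAMB2 and LAMB3 held 46.7%, 43.6% and 9.64% of it in the library labelled 813, against 29.8%, 43.1% and 27.1% in the library labelled NT. The summed RPKM of the beta integrins was 198.9 in the library labelled 813 and 98.4 in the library labelled NT, and that of the gamma laminins 19.99 and 6.32. In the same order, the sums were 99.7 and 80.8 for alpha integrins, 14.2 and 7.24 for alpha laminins, and 33.1 and 21.7 for beta laminins. Scaling by RPKM totals puts log2 folds 0.129 above those with TMM.

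**Figure D2:**
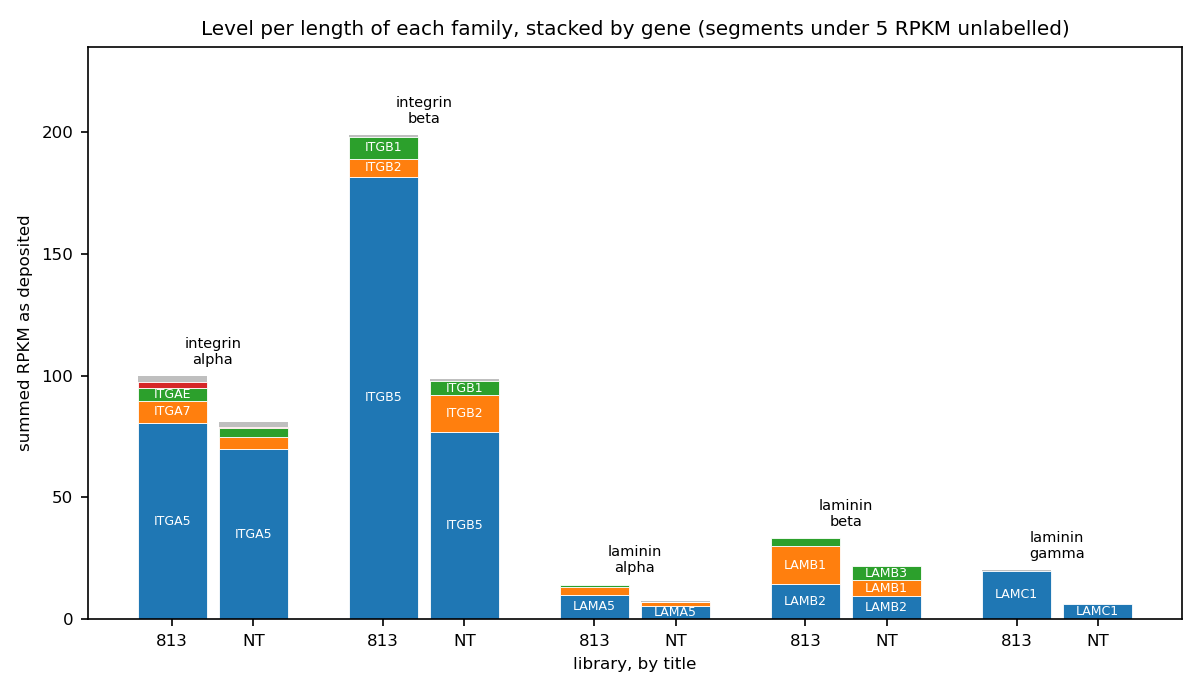
Summed RPKM as deposited for each family of chains, in the library labelled 813 (left bar) and the library labelled NT (right bar), stacked by gene; colours are reused between families and segments under 5 RPKM carry no name. The ITGB5 segment fills most of the beta integrin bars, at 181.7 RPKM in 813 and 76.8 RPKM in NT.

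Among the alpha subunits of the fibronectin and RGD-binding class, the abundant gene was nearly level between the libraries. ITGA5, which pairs with ITGB1 as the main fibronectin receptor, had 426 CPM in the library labelled 813 and 404 CPM in the library labelled NT, a log2 fold of 0.076 (0.036 to 0.117). ITGAV, the partner shared by ITGB1, ITGB3, ITGB5, ITGB6 and ITGB8 in receptors for vitronectin and other ligands, had 109 and 104 pairs in the libraries labelled 813 and NT. Its log2 fold of -0.0081 (-0.41 to 0.39) was not called. ITGA8 and ITGA2B were not measured, with at most 16 pairs in a library.

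Of the 2 measured laminin-binding alpha subunits, ITGA3 was called higher in the library labelled 813 and ITGA7 was not called. ITGA3 (chr17:48133340-48167849 in hg19, plus strand), a receptor subunit for laminins that contain LAMA3 or LAMA5, had 328 pairs (13.4 CPM) in the library labelled 813 and 67 pairs (2.89 CPM) in the library labelled NT. That is a log2 fold of 2.21 (1.83 to 2.62), the largest among members at 1 CPM or more in both libraries. All 26 of its exon records were higher in the library labelled 813, with log2 folds from 0.66 to 3.73. ITGA7, the laminin receptor subunit best known from skeletal muscle, had 49.8 CPM in the library labelled 813 and 29.7 CPM in the library labelled NT, a log2 fold of 0.74 (0.61 to 0.88) that was not called. ITGA6, the third of the class, had 12 and 3 pairs in the libraries labelled 813 and NT, under 1 CPM in both.

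ITGA9 and ITGA4, closely related alpha subunits whose ligands include tenascin-C, osteopontin and VCAM1, were also higher but scarce. ITGA9 (chr3:37493813-37861281) had 94 pairs in the library labelled 813 and 40 in the library labelled NT, a log2 fold of 1.15 (0.61 to 1.73). The strand setting of the counts is not given in the sources used here. GENCODE lists an antisense gene, ITGA9-AS1, that shares 495 of the 7889 bases of the longest ITGA9 transcript. Reads over those bases cannot be assigned to either gene alone. ITGA4 (chr2:182321619-182402468) had 32 and 7 pairs in the libraries labelled 813 and NT, a log2 fold of 2.04 (0.91 to 3.54). Its exon reads stopped partway along the gene. The first 16 of its 28 exon records held 77 and 15 reads in the libraries labelled 813 and NT, and the last 12 held 5 and 6, of which 4 and 5 lay in the last record, which overlaps CERKL. The difference lay in the 5' part and the records of the 3' part were near empty in both libraries.

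Collagen receptors were scarce. ITGA1, which pairs with ITGB1 to bind collagens, had 27 and 21 pairs in the libraries labelled 813 and NT, a log2 fold of 0.28 (-0.59 to 1.18). The first exon record of ITGA1 overlaps PELO and held 8 and 7 reads in the libraries labelled 813 and NT. Which gene those reads came from was not tested, and ITGA1 was close to 1 CPM. ITGA2, ITGA10 and ITGA11 were not measured.

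The leukocyte class of alpha subunits held 2 measured genes, and the exon tables qualify both. ITGAE, the alpha subunit of an integrin that holds lymphocytes in epithelia, had 639 pairs (26.1 CPM) in the library labelled 813 and 455 pairs (19.6 CPM) in the library labelled NT, a log2 fold of 0.41 (0.24 to 0.59). Its reads lay over the last 8 of its 31 exon records, with 1544 reads in the library labelled 813 and 1083 in the library labelled NT, while the first 23 records together had 1 and 4 reads. The ITGAE value therefore describes RNA from the 3' end of the gene, and RNA of its 5' exons was at the limit of detection. The deposited table places GSG2 inside ITGAE, but no exon record of ITGAE overlapped an exon record of another gene. ITGAM (chr16:31271288-31344213), which pairs with ITGB2 on myeloid cells, had 13 and 42 pairs in the libraries labelled 813 and NT, a log2 fold of -1.73 (-2.79 to -0.84), or -2.46 with exon sums in place of gene counts.

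ITGAM lies next to ITGAX and ITGAD, and the exon table of the library labelled NT had a floor of reads over all 3 genes. Every exon record of ITGAX had at least 3 reads in that library, with exactly 3 in 26 of 30, and ITGAD also had exactly 3 in 26 of 30. In the library labelled 813 only 3 records of ITGAX and 4 of ITGAD had any read. Records of ITGAM held 0 to 5 reads in the library labelled 813 and 3 to 24 in the library labelled NT. Summed exon reads over ITGAM were 38 and 204 in the libraries labelled 813 and NT, against deposited gene counts of 26 and 84 reads. Summed exon reads over ITGAD were 7 and 97 in the libraries labelled 813 and NT, against deposited gene counts of 10 and 8 reads, so the floor does not appear in the gene counts of ITGAD. Whether a floor of this kind touches the ITGAM gene count was not tested. Over the genes with at least 400 reads in each library the exon sum was 1.22 times the gene count in both.

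Beta subunits differed in direction. ITGB5 (chr3:124481795-124606144, minus strand), which pairs with ITGAV as a vitronectin receptor, had 18638 pairs (762 CPM) in the library labelled 813 and 8183 pairs (353 CPM) in the library labelled NT. Its log2 fold was 1.11 (1.07 to 1.15), and its 15 exon records ranged from 0.999 to 1.26. ITGB1, the shared partner of most alpha subunits here, had 47.1 and 31.7 CPM in the libraries labelled 813 and NT, a log2 fold of 0.57 (0.43 to 0.70) that was not called. ITGB3, the beta subunit of the platelet fibrinogen receptor and a partner of ITGAV, had 32 and 7 pairs in the libraries labelled 813 and NT, a log2 fold of 2.04 (0.91 to 3.54). Its last exon record held 42 and 6 reads in the libraries labelled 813 and NT, and the other 14 records held 26 and 12. Most of its exon reads thus lay in the last record in the library labelled 813, but not in the library labelled NT. ITGB3 also shares 56.7% of its longest GENCODE transcript with the entry AC068234.1, so its count is uncertain.

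ITGB2 was the most abundant member that was lower. ITGB2 (chr21:46305868-46348753, minus strand), the beta subunit of leukocyte integrins, had 698 pairs (28.5 CPM) in the library labelled 813 and 1499 pairs (64.6 CPM) in the library labelled NT, a log2 fold of -1.18 (-1.31 to -1.05). Its first 2 exon records overlap LOC100505746 and held 73 and 85 reads in the libraries labelled 813 and NT. The other 15 records held 1660 and 3580 reads, a log2 fold of -1.18 (-1.30 to -1.06). No known alpha partner of ITGB2 was near its level, since ITGAL, ITGAM, ITGAX and ITGAD had at most 0.163 RPKM in the library labelled 813 and 0.280 RPKM in the library labelled NT, against 7.30 and 15.1 RPKM for ITGB2. Leukocyte markers stood with CD68 at 11.2 and 11.7 CPM, CD14 at 30 and 14 pairs and PTPRC at 0 and 1 pairs in the libraries labelled 813 and NT, and a sum over the marker list of 12.4 CPM in each, and their part in the ITGB2 difference was not tested. ITGB4, which joins ITGA6 in hemidesmosomes, had 67 and 126 pairs in the libraries labelled 813 and NT, a log2 fold of -0.98 (-1.44 to -0.55), just inside the 2-fold limit. ITGB6, ITGB7 and ITGB8 had at most 5 pairs in either library.

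The levels of partners were set side by side for 24 known alpha-beta pairs. Both subunits reached 1 CPM for 9 pairs in the library labelled 813 and 7 pairs in the library labelled NT. The pairs of ITGB1 with ITGA3, ITGA5, ITGA7, ITGA9 and ITGAV and the pair of ITGAV with ITGB5 did so in both libraries. ITGA1 and ITGA4 with ITGB1 and ITGAV with ITGB3 did so only in the library labelled 813, and ITGAM with ITGB2 only in the library labelled NT, each through a subunit close to the limit. Levels of partners were unequal. ITGB5 stood at 181.7 and 76.8 RPKM in the libraries labelled 813 and NT, and ITGAV, its only partner among the pairs, at 0.497 and 0.457 RPKM. ITGA5 stood at 80.5 and 69.8 RPKM in the libraries labelled 813 and NT, and its partner ITGB1 at 9.26 and 5.71 RPKM. RNA levels do not show which dimers reach the surface.

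**Figure D3:**
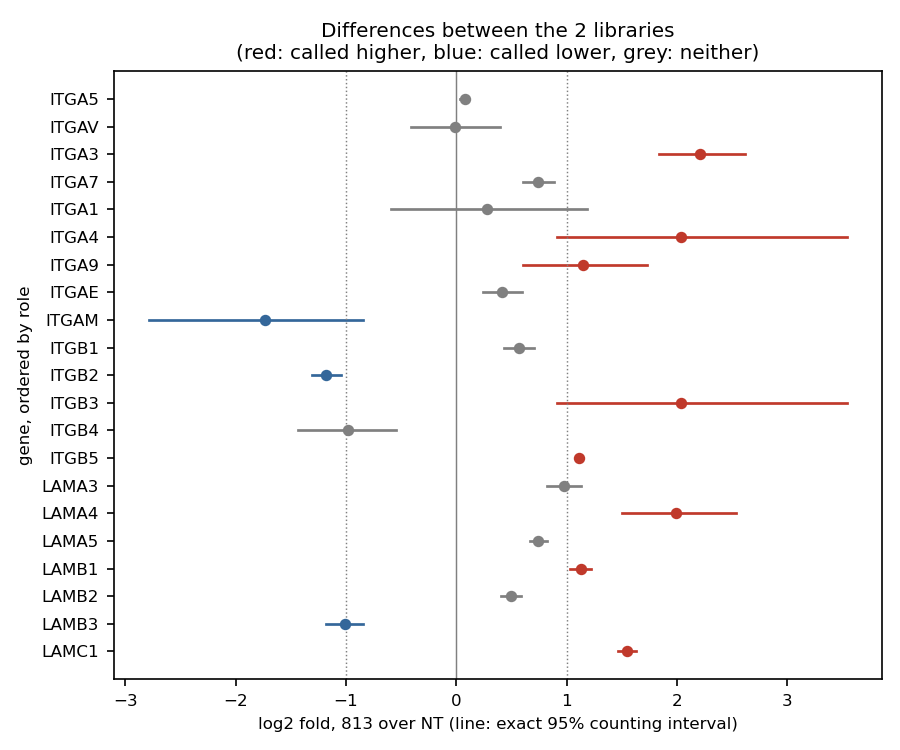
Log2 fold of each measured member, 813 over NT, by gene in order of role, with its exact 95% counting interval as a line; dotted lines mark 2-fold either way. The 8 genes called higher lie right of the upper dotted line and the 3 called lower left of the lower one, while LAMA3 (0.97) and ITGB4 (-0.98) lie just inside.

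Of 7 measured laminin chains, 3 were called higher in the library labelled 813, 1 (LAMB3) was called lower and LAMA3, LAMA5 and LAMB2 were not called. The higher ones, LAMA4, LAMB1 and LAMC1, are 1 of each class, and their promoter windows are shown for that reason. RUNX factors bind a core that reads TGTGGT or TGCGGT, and these letters were searched on both strands (ACCACA or ACCGCA on the printed strand for a match on the other); a match is in capitals. Each window runs from 250 bases before to 50 bases after a transcript start, from RefSeq on build GRCh38.p14, read 5′ to 3′ along the gene.
LAMA4 (chr6:112254518-112254817, minus strand): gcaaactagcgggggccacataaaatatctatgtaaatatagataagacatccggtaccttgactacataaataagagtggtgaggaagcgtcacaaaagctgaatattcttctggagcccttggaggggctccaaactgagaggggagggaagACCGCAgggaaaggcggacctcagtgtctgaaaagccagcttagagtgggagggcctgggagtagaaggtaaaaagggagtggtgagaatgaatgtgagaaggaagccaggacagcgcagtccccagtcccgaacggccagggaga
LAMB1 (chr7:108003112-108003411, minus strand): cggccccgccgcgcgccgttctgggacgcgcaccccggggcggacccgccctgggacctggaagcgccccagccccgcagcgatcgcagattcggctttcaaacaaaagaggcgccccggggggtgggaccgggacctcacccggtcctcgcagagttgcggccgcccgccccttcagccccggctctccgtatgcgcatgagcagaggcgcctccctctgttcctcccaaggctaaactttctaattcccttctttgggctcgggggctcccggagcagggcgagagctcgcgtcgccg
LAMC1 (chr1:183023170-183023469, plus strand): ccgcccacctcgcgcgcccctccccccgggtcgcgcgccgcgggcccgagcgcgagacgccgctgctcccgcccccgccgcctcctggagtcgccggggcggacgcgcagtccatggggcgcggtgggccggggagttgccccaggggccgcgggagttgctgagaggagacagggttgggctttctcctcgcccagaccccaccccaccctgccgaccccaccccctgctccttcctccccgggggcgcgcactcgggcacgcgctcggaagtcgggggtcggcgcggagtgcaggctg
The LAMA4 window held 1 match, 96 bases before the start and on the other strand, and these letters were not in the LAMB1 and LAMC1 windows. LAMB3, the laminin chain called lower, also had a match in its first listed window, 82 bases before the start and on the same strand. The first 13 LAMB3 exon records, at the 5' end, were not lower in the library labelled 813. Their log2 fold was 0.42 (-0.31 to 1.19), in a split described below. Among the 26 members with a window, the first listed one held a match for 5 (19.2%), near the 19.4% over all genes. By call these were 1 of 5 called higher, 2 of 2 called lower and 0 of 8 called neither. Windows were lacking for some of the 8 members called higher and the 3 called lower. The 2 called lower were LAMB3 and ITGAM, and ITGAM was measured through the library labelled NT alone. ITGB5, called higher, had a match in another of its listed windows. Of all 35116 promoter windows of this length, 19.6% held at least 1 match. Binding was not measured in these data.

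Alpha chains, which carry the sites for cell receptors, included 3 measured genes. LAMA5, the broadly expressed chain of epithelial and vascular basement membranes, had 142 and 84.5 CPM in the libraries labelled 813 and NT, a log2 fold of 0.74 (0.66 to 0.83) that was not called. LAMA4 (chr6:112429134-112575828 in hg19), the chain of endothelial and mesenchymal laminins, had 169 pairs (6.91 CPM) in the library labelled 813 and 40 pairs (1.72 CPM) in the library labelled NT, a log2 fold of 1.99 (1.499 to 2.54). LAMA3 (chr18:21269562-21535029), the chain of the laminin that anchors skin epithelium, had 1103 pairs in the library labelled 813 and 533 in the library labelled NT, a log2 fold of 0.97 (0.82 to 1.13), just short of the 2-fold limit. With plain total counts it passed, at 1.11. LAMA1 and LAMA2 had at most 2 and 17 pairs in a library.

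The beta and gamma chains that accompany LAMA4 and LAMA5 were abundant. LAMB1 (chr7:107564246-107643804), a chain of the earliest embryonic laminins, had 2753 pairs (113 CPM) in the library labelled 813 and 1197 pairs (51.6 CPM) in the library labelled NT, a log2 fold of 1.13 (1.03 to 1.23). LAMB2, which replaces LAMB1 at the neuromuscular junction and the kidney filter, had 104 and 74.1 CPM in the libraries labelled 813 and NT, a log2 fold of 0.50 (0.41 to 0.59). LAMC1 (chr1:182992595-183114727), the gamma chain of most laminins, had 4761 pairs (195 CPM) in the library labelled 813 and 1544 pairs (66.5 CPM) in the library labelled NT, a log2 fold of 1.55 (1.47 to 1.63). All 28 of its exon records were higher in the library labelled 813, from 1.29 to 2.07.

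LAMB3 went the other way. LAMB3 (chr1:209788218-209825820, minus strand), a beta chain of epithelial laminins, had 437 pairs (17.9 CPM) in the library labelled 813 and 836 pairs (36.0 CPM) in the library labelled NT, a log2 fold of -1.01 (-1.18 to -0.84). That call rests on the limit, and it ended with plain total counts (-0.88), with the authors' RPKM (-0.88), with the GC and length trend removed (-0.83) and with exon sums (-0.96). LAMC3 had 20 and 16 pairs in the libraries labelled 813 and NT, and LAMB4 had none in either.

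Exon records showed where along these genes the difference lay. Across 337 member records that passed a minimum of 50 reads (200 for the gene), 1 departed 2-fold or more from the rest of its gene with intervals that did not overlap, against 0.42% of 93507 records over all genes. That record, in LAMA3 (chr18:21343369-21343487), had 57 and 56 reads in the libraries labelled 813 and NT; over the other records the log2 fold was 0.98. Splitting each gene at the middle of its summed exon length gave no member of the 18 compared whose parts differed 2-fold with separate intervals. Over all genes it was 1.41% of 9883, a share too small to set against so few members. The splits of single genes given for ITGA4, ITGAE, ITGB2 and ITGB3 and in what follows were chosen after the exon values were seen and are descriptions.

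LAMA3 has a long transcript and short ones that start downstream, and the exons from record 40 on match the inner exons of the short GENCODE transcript in length. The 38 records of the long transcript alone held 1549 and 962 reads in the libraries labelled 813 and NT, a log2 fold of 0.61 (0.45 to 0.78). Within that part, the first 9 records held 591 and 431 reads, a log2 fold of 0.38 (0.12 to 0.64). Whether the fold changes in a step or gradually along the gene was not tested. The 37 records shared by long and short transcripts held 1276 and 427 reads, a log2 fold of 1.502 (1.28 to 1.73). Read density was 6.23 and 4.08 CPM per kb over the long part and 4.81 and 1.70 CPM per kb over the shared part in the libraries labelled 813 and NT. Density over the shared part was thus the lower in both libraries, and the record between them, the first exon of a short transcript, held 7 and 1 reads.

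LAMB3 and LAMA4 were also uneven. The first 13 LAMB3 records, at the 5' end, held 78 reads in the library labelled 813 and 55 in the library labelled NT, a log2 fold of 0.42 (-0.31 to 1.19) without 1 overlapping record, and the last 12 held 944 and 1840, a log2 fold of -1.04 (-1.20 to -0.88). Density over the last 12 was 7.34 CPM per kb in the library labelled 813 and 15.1 in the library labelled NT, against 0.854 and 0.635 over the first 13. The lower LAMB3 level in the library labelled 813 was thus seen over the 3' records. Because this cut was chosen after the values were seen, separate intervals are no check on it. Split at mid-length, LAMB3 had log2 folds of -0.19 (-0.73 to 0.34) and -1.04 (-1.21 to -0.88). That difference was short of 2-fold. For LAMA4 the first 15 records held 199 and 66 reads in the libraries labelled 813 and NT, a log2 fold of 1.502 (0.94 to 2.13), with the shorter of each of 3 overlapping pairs of records left out. The last 27 held 224 and 20 reads, a log2 fold of 3.35 (2.48 to 4.51), with reads in 27 of them in the library labelled 813 and in 9 in the library labelled NT.

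**Figure D4:**
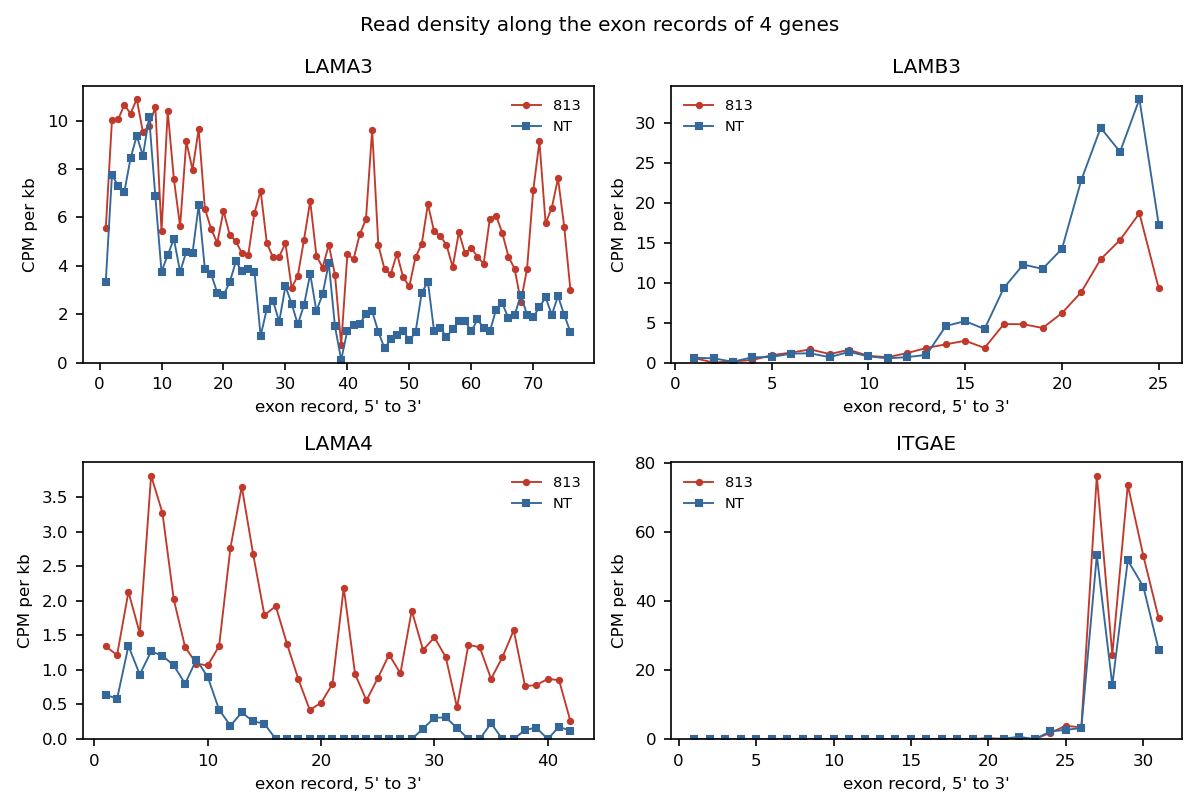
Read density, in CPM per kb with 2 reads taken as a pair, along the exon records of LAMA3, LAMB3, LAMA4 and ITGAE from 5' to 3', with circles for the library labelled 813 and squares for the library labelled NT. LAMB3 density climbs from record 14 on in both libraries, LAMA4 density in NT is near 0 from record 16 on, and ITGAE has almost no reads before record 24.

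Genes that work with integrins and laminins were described by lists. Of 37 measured adaptor and focal adhesion genes, 4 were called higher and 1 lower, with a median log2 fold of 0.11; the shares over all measured genes, 8.13% higher and 3.48% lower, hold for each list here. FERMT2, a kindlin that activates integrins, had 301 and 96 pairs in the libraries labelled 813 and NT (log2 fold 1.57, 1.24 to 1.92), and PTK2, the focal adhesion kinase, 2001 and 920 pairs (1.05, 0.93 to 1.16). The adaptors CRK (1.44, 1.22 to 1.67) and LIMS1 (1.17, 0.78 to 1.59) were the other higher ones. FERMT1, the epithelial kindlin, was lower with 26 and 69 pairs in the libraries labelled 813 and NT (-1.47, -2.19 to -0.81). With the GC and length trend removed the calls of PTK2 (0.64) and LIMS1 (0.76) ended.

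Ligands outside the laminins had 5 of 21 measured genes higher and 0 lower, with a median of 0.50. They were COL3A1 (2.49), TGFBI (2.19), TNC (2.15), FBN1 (1.45) and ICAM1 (1.70), which binds ITGB2 integrins and was named after its value was seen. Several of these genes are also expressed by fibroblasts. Fibroblast markers summed to 352 and 287 CPM in the libraries labelled 813 and NT, nearly all of it THY1. The other markers of that list were DCN at 124 and 146 pairs, LUM at 33 and 23 pairs and PDGFRA at 3 and 4 pairs. The part of fibroblast markers in the result was not tested. TNC, a ligand of ITGA9, had 2259 CPM in the library labelled 813 and 510 CPM in the library labelled NT. The basement membrane partners had 6 of 18 higher and 0 lower, with a median of 0.29. Among them NID2, which links laminin to collagen networks, had 125 and 43.0 CPM in the libraries labelled 813 and NT (log2 fold 1.54, 1.44 to 1.64). SMOC2 (2.81), SPARC (1.79) and COL7A1, the anchoring fibril collagen (1.26), were also higher, as were FREM2 (1.10) and FBLN2 (1.60), which were named after their values were seen. The call of FREM2 ended with the trend removed (0.58). Of 23 measured laminin receptors and partners outside the integrins, 1 was higher and 1 lower, with a median of 0.024. SGCE, a sarcoglycan, had 178 and 74 pairs in the libraries labelled 813 and NT (1.19, 0.79 to 1.60), and BCAM, a receptor for LAMA5 laminins, had 199 and 417 pairs (-1.14, -1.39 to -0.90), a call that ended with the trend removed (-0.80).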

How the data were processed

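The authors deposited a raw count and an RPKM value for each gene and each exon, per the file headers. The submitters' processing notes name CASAVA 1.9, TopHat2 2.0.6, HTSeq and build hg19. The strand setting and the annotation are not stated in the sources used here. Deposited gene counts held 0 odd numbers in either library and were divided by 2 to give pairs. Of 23398 gene rows, 46 repeats were dropped. TMM factors of 1.05 (813) and 0.954 (NT) came from edgeR 4.0.16 in R 4.3.3, over all genes. Folds used a prior of 0.5 pairs, and intervals are exact conditional binomial ones (scipy 1.17.1). Call rules were tested on simulated counts that held counting error only, as the intervals assume. That test says nothing of differences between cultures.

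The members and lists were chosen with earlier results of these data known. Every measured member is named, except where a result is not reported here; for lists the rule was up to 4 called genes a direction, those whose interval bound lay farthest from no difference, and ICAM1, FREM2 and FBLN2 were added to it after their values were seen. GC content and strand came from GENCODE release 29 for 97.1% of measured genes. In a blastn 2.17.0 search at 97% identity, ITGB3 and ITGB7 shared 50% or more of their longest transcript with another gene's entry (AC068234.1 and ZNF740). Alternatives were other scalings (with DESeq2 1.42.0 size factors), filters, exon sums, undivided counts and a looser call. 2 list names (KIND1, ICAP1) are older symbols of genes already listed.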

Additional observations from a re-analysis of the deposited data

How the results depend on the processing

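No paired analysis was possible because each group has 1 library, and no library could be left out. Plain totals moved all log2 folds up by 0.135 and the authors' RPKM totals by 0.129 relative to TMM. The share of calls that were higher over all genes was 70.0% with TMM, 81.4% with plain totals and 81.1% with RPKM totals.

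No called member changed direction under the alternatives run. Members called higher numbered 5 of the 15 measured at 5 CPM (7.88% of all genes), against 8 of 21. No member still measured at 5 CPM lost its call. With the GC and length trend removed, 5 of 21 were called higher (5.97% of all genes). Members called lower numbered 1 with the trend removed (2.5% of all genes), against 3. ITGA9, LAMB1, ITGA4, ITGB2 and LAMB3 lost their calls with the trend removed. LAMA3 was called higher with plain totals (1.11) and RPKM totals (1.10), and ITGB4 lower with exon sums (-1.002). The members' median was 0.88 with plain totals, 0.87 with RPKM totals and 0.35 with no filter, over 37 genes.

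With plain totals and RPKM totals the list medians were 0.246 and 0.240 for adaptors, 0.637 and 0.631 for ligands, 0.429 and 0.423 for basement membrane partners, and 0.159 and 0.153 for laminin receptors, which then had 2 called higher. At 5 CPM adaptors had 0 called lower, and the medians were 0.616 for ligands, 0.0094 for basement membrane partners and -0.0059 for laminin receptors, a change of sign. With the trend removed the ligand median was 0.296, the receptor median 0.164 and the receptors called lower 0. With no filter the ligand median was 0.661 and 1 basement membrane partner was called lower.

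With the looser 1.5-fold call, adaptors had 7 higher and 2 lower, ligands 9 higher, basement membrane partners 2 lower and laminin receptors 3 higher and 4 lower; over all genes this rule called 19.8% higher and 11.2% lower. ITGAM was -2.46 with exon sums, against -1.73, and in those sums all its records in the library labelled NT held at least 3 reads. The causes of these moves were not tested. Dimers with both subunits present fell to 3 in the library labelled 813 and 2 in the library labelled NT, both at 1 RPKM and at 5 CPM. The 17 unmeasured members had at most 23 pairs in the library labelled 813 and 17 in the library labelled NT.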
